A study of Homo sapiens with 17 samples.

Results

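The higher of the 2 ILT3.Fc doses used on Jurkat cells was compared with the lower one. Members were chosen by the dose and time in the sample titles: the 6 RNA-seq libraries of cells given 25 µg/ml and the 6 of cells given 12.5 µg/ml, 12 of 17 libraries in all, with 2 of each dose after 6, 12 and 24 h. The other 5 libraries came from untreated cells (0 µg/ml, 2 at 6 h, 1 at 12 h and 2 at 24 h). They entered no main fit, only alternative fits of all 17 libraries, and are otherwise given here as background levels. Jurkat cells are an established line from a human T cell leukaemia. Every library came from this 1 line, kept in RPMI-1640 medium to which fetal bovine serum, L-glutamine and gentamicin were added. Both dosed groups received ILT3.Fc, a soluble fusion of the outer domains of ILT3, an inhibitory receptor of antigen-presenting cells, to an antibody Fc fragment, and no Fc control protein is named in the labels. The comparison therefore asks what the higher dose adds to the lower one, and not what ILT3.Fc does to untreated cells. The duplicates are not said to be separate cultures, and the p-values then reflect no more than the spread among these samples, part or all of which may be technical.

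Cholesterol is made from acetyl-CoA through the mevalonate pathway, in which HMGCS1 makes HMG-CoA, and then from squalene through a series of sterol intermediates. The SREBP transcription factors switch these enzymes on together when membrane sterol is low, and the INSIG proteins hold the SREBPs back when sterol is plentiful. Messages for mitosis rise in late G2 and are removed after division, and many of their promoters carry a CHR element, a short site at which the DREAM complex represses transcription outside that phase. Proliferating T cells and T cell leukaemia lines express both sets.

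The libraries were alike in most respects. Sums of FPKM (fragments per kilobase, scaled to the mapped fragments of the library) ranged from 504363 to 557389 over the 12 libraries, and the shallowest library had 0.717 of the depth of the deepest. The absolute depth is unknown. Of 10 T lymphoblast genes, 10 had a mean FPKM of at least 1, and their summed level was 1619 to 1747 at 12.5 µg/ml and 1561 to 1714 at 25 µg/ml. The epithelial and fibroblast list summed to 0.493 FPKM or less in these libraries, with EPCAM, CDH1 and COL1A2 at 0 in all 12, and the myeloid list to 3.49 or less. CD79A, counted here with B cell markers, stood at 39.9 FPKM on average, while PAX5 was listed at 0 in all 12. LILRB4, the gene of ILT3 itself, was listed at 0 in all 17 libraries. In replicate 1 of 12.5 µg/ml at 6 h deviations from the mean library fell with gene length (Spearman's rho across genes -0.60), and in replicate 2 of 25 µg/ml at 24 h they rose with GC content (rho 0.58). Genes are not independent replicates, so these 2 values describe the libraries. The counts of calls are given with and without these libraries.

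Over all times 6 of 12017 genes passed the test (0.0499%), 1 higher and 5 lower at 25 µg/ml. The gene that rose was HMGCS1. The genes that fell were PLK1 and CDC20, which drive entry into and exit from mitosis, CENPA, the histone of the centromere, FAM83D, a spindle protein that recruits casein kinase to mitotic microtubules, and SF3B3, one of the proteins of the splicing complex SF3B. An additive limma model of dose and time on log2(FPKM + 1) gave these calls, at an adjusted p under 0.05 over all genes tested. The median difference of all genes was 0.01 on that scale, and 1047 genes had an unadjusted p under 0.05. Without replicate 1 of 12.5 µg/ml at 6 h, 15 genes passed (0.125%), 5 higher (0.0416%) and 10 lower (0.0832%), the same 6 among them. Without replicate 2 of that group 14 passed (0.117%). Leaving out any other single library gave 1 call for either 24 h replicate of 25 µg/ml and 0 for each of the other 8, with 786 to 1458 genes at an unadjusted p under 0.05 over all 12 omissions. Within sequencing lane 4 and lane 5, with 6 libraries each, no gene passed (678 and 1070 at an unadjusted p under 0.05). The difference there was 0.35 and 0.33 for HMGCS1, -0.31 and -0.26 for PLK1, and -0.29 and -0.21 for CDC20. For FAM83D it was -0.25 and -0.22, for CENPA -0.19 and -0.17, and for SF3B3 -0.19 and -0.17.

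HMGCS1 had the largest difference in size of the 6 called genes. At 6 h it stood at 87.3 and 82.8 FPKM with 12.5 µg/ml and at 96.5 and 91.9 with 25 µg/ml. At 12 h the values were 58.5 in both libraries of the lower dose against 77.8 and 79.4. At 24 h they were 96.2 and 96.8 against 136 and 130.04, with 65.2 and 69.2 in untreated cells. Both libraries of the higher dose lay above both of the lower dose at every time, although the 2 doses overlapped when times were pooled. The level was lowest at 12 h in all 3 dose groups, in untreated cells by 1 library. HMGCS1 rose by 0.34 on the log2 scale (SE 0.048, 95% interval 0.24 to 0.45, limma adjusted p = 0.0392), or by 26.6% of FPKM + 1. Within single times it rose at 12 h by 0.42 (SE 0.043, adjusted p = 0.0248) and at 24 h by 0.46 (adjusted p = 0.00819), and the value at 6 h was 0.15 (adjusted p = 0.398). The difference between the 24 h and the 6 h values, 0.31, had an unadjusted p of 6.13e-04 and did not pass (adjusted p = 0.159).

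**Figure D1:**
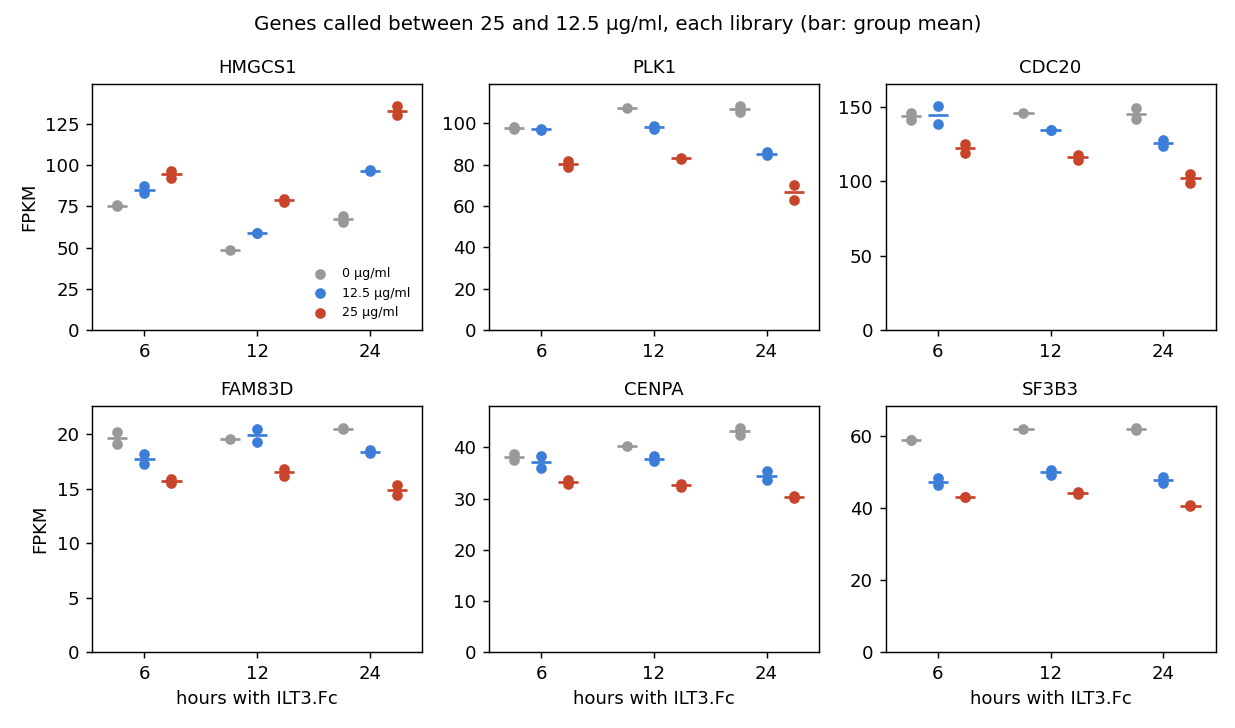
FPKM (vertical axes, from 0) of the 6 genes called between 25 and 12.5 µg/ml, by hours with ILT3.Fc (horizontal axes). Points are single libraries, coloured by dose with untreated cells in grey, and bars are group means. At 6, 12 and 24 h both points at 25 µg/ml lie above those at 12.5 µg/ml for HMGCS1 and below them for the other 5 genes.

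The other genes of sterol synthesis stood higher at 25 µg/ml without passing the test. Of 33 listed genes of the mevalonate pathway, the steps from squalene to cholesterol, and SREBP control and sterol uptake, 30 were tested, and 29 of them had a difference above 0, against 56% of all genes. Of these 30, 1 rose (HMGCS1, where 0.00832% of all genes rose), none fell and 29 did not pass. The number that rose was 4 without replicate 1 of 12.5 µg/ml at 6 h (0.0416% of all genes) and 1 without replicate 2 of that group (0.00832%). It was 5 with all 17 libraries in a fit with 1 mean per dose and time, where 8 of 12017 genes rose. It was 2 once libraries were corrected for GC content and length, where 10 of 11129 genes rose. The median was 0.12, against 0.01 for all genes, and 17 members had an unadjusted p under 0.05 in the higher direction, against 4.98% of all genes. Both libraries of the higher dose lay above both of the lower dose at all 3 times for 7 members, against 1.65% of all genes, among them HMGCS1, CYP51A1, MSMO1, STARD4 and NPC1. The lists were written with the function of the genes in view and with earlier results of these libraries known, so the counts describe them and are not independent evidence of a direction.

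Among the mevalonate enzymes IDI1, the isopentenyl diphosphate isomerase, stood higher by 0.15 (SE 0.049, adjusted p = 0.453). PMVK, the phosphomevalonate kinase, was the 1 sterol gene with a difference below 0 (-0.06) and was chosen after its values were seen.

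In the branch from squalene to cholesterol all 12 enzymes tested had a difference above 0, with a median of 0.13. MSMO1, the sterol-C4-methyl oxidase, stood at 32.6 and 31.3 FPKM against 34.1 and 33.6 at 6 h, at 25.7 and 24.4 against 32.7 and 31.6 at 12 h, and at 39.1 and 41.4 against 52.98 and 49.7 at 24 h. The libraries of the 2 doses did not overlap at any time, and the gap was wider at 12 and 24 h than at 6 h. The difference of MSMO1 was 0.26 (SE 0.047, adjusted p = 0.114), and it rose without replicate 1 of 12.5 µg/ml at 6 h (0.29, adjusted p = 0.0413). CYP51A1, the lanosterol demethylase, stood higher by 0.20 (adjusted p = 0.355). DHCR7, which makes cholesterol from its last precursor, stood higher by 0.14 (limma adjusted p = 0.376). Its doses were apart at 2 of the 3 times, a pattern whose share of all genes was not counted.

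Of the regulators, INSIG1, which retains the SREBPs in the endoplasmic reticulum, stood at 85.5 and 79.1 FPKM against 84.5 and 85.0 at 6 h. At 12 h it stood at 63.5 and 64.1 against 74.6 and 75.3, and at 24 h at 92.3 and 93.3 against 113 and 109. The doses overlapped at 6 h and were apart at the 2 later times, a pattern whose share of all genes was not counted. The difference of INSIG1 was 0.17 (SE 0.037, adjusted p = 0.189), and it rose without replicate 1 of 12.5 µg/ml at 6 h (0.20, adjusted p = 0.0322). SREBF2, which encodes the SREBP of the sterol genes, stood higher by 0.13 (adjusted p = 0.431). STARD4 and NPC1, which move cholesterol inside the cell, stood higher by 0.18 (adjusted p = 0.292) and 0.17 (adjusted p = 0.341). Lipid genes outside sterol synthesis lay closer to 0: the median of 11 tested genes of fatty acid synthesis was 0.04, with 8 of 11 above 0 and no call, and SCD, the stearoyl-CoA desaturase, stood higher by 0.08 (adjusted p = 0.468).

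The promoters of the sterol genes were read to show where known control sites lie. RefSeq promoters (GRCh38.p14, 250 bases before each start and 50 from the start on) were matched by symbol for 24 of the 30 sterol genes, 50 of 59 mitotic genes described below and 9068 of all genes tested. The sterol regulatory element was searched as TCACNCCAC on both strands. It was in 1 of the 24 sterol promoters, that of SREBF2, and in 1.08% of the promoters of all genes tested. No match says only that these letters are not in this window. CCAAT, the box bound by NF-Y, which often lies beside such elements, was searched on both strands and was in 16 of 24 (66.7%), against 37.6%. The stretch of HMGCS1 is shown because this was the gene that rose, with 2 CCAAT boxes in reverse (ATTGG) in capitals, on the minus strand at chr5:43313493-43313582, and that of SREBF2 because it holds the match, in capitals, on the plus strand at chr22:41832957-41832995.
HMGCS1: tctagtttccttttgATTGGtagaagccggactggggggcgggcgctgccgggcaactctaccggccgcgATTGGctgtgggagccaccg
SREBF2: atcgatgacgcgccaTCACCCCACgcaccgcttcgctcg

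Genes of mitosis stood lower at 25 µg/ml. All 59 genes on 5 lists (kinases and checkpoint, cyclins and exit, kinesins, spindle and cytokinesis, and centromere) were tested, and 57 had a difference below 0, against 44% of all genes. Of the 59, 3 fell (PLK1, CDC20 and CENPA, where 0.0416% of all genes fell), none rose and 56 did not pass. The number that fell was 4 without replicate 1 of 12.5 µg/ml at 6 h (0.0832% of all genes) and 6 without replicate 2 of that group (0.108%). It was 9 with all 17 libraries in a fit with 1 mean per dose and time, where 26 of 12017 genes fell. It was 11 once libraries were corrected for GC content and length, where 36 of 11129 genes fell. The median was -0.09, and 31 had an unadjusted p under 0.05 in the lower direction, against 3.73% of all genes. Both libraries of the higher dose lay below both of the lower dose at all 3 times for 19 members, against 1.21% of all genes. The 2 members with a difference at or above 0, chosen after their values were seen, were KIF18B (0.03) and FZR1 (5.14e-04). In bulk RNA, fewer cells in mitosis and less of these messages per cell cannot be told apart.

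PLK1, the kinase that triggers centrosome maturation and mitotic entry, had the lowest adjusted p of all genes. At 6 h it stood at 96.8 and 97.5 FPKM with 12.5 µg/ml and at 82.0 and 78.9 with 25 µg/ml. At 12 h the values were 98.9 and 97.3 against 82.9 and 83.2, and at 24 h 86.1 and 84.5 against 63.0 and 70.3. All 6 libraries of the higher dose lay below all 6 of the lower, as for 16 of 12017 genes (0.133%). Untreated cells stood at 97.4 to 108. At 6 h the lower dose was thus at the untreated level (98.0 and 97.4) while the higher dose was not. PLK1 fell by 0.29 (SE 0.031, 95% interval -0.35 to -0.22, limma adjusted p = 0.0181), and its differences at 6, 12 and 24 h were -0.27, -0.24 and -0.35, none of which passed alone (adjusted p = 0.398, 1 and 0.0615).

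CDC20, the activator of the anaphase-promoting complex, stood at 150.5 and 138 FPKM against 125 and 119 at 6 h, at 135 and 134 against 115 and 118 at 12 h, and at 128 and 124 against 98.8 and 105 at 24 h. The doses were apart at every time (1.21% of all genes in this direction). The lowest value of the lower dose (124, at 24 h) lay just under the highest of the higher dose (125, at 6 h). CDC20 fell by 0.25 (SE 0.030, adjusted p = 0.0313). CENPA, whose nucleosomes mark the centromere, ran from 33.6 to 38.4 FPKM at the lower dose (median 36.7) and from 30.2 to 33.7 at the higher (median 32.6), with 37.6 to 43.8 in untreated cells. It fell by 0.18 (SE 0.025, adjusted p = 0.0392), with values of -0.16, -0.21 and -0.18 at 6, 12 and 24 h. FAM83D ran from 17.3 to 20.5 FPKM at the lower dose and from 14.5 to 16.8 at the higher, against 19.1 to 20.6 untreated. Its doses did not overlap, as for 0.133% of all genes in this direction. FAM83D fell by 0.23 (SE 0.032, adjusted p = 0.0392), and it belongs to no list used here.

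Other members of the mitotic lists had differences below 0 that did not pass in the additive model of the 12 libraries as deposited. Once libraries were corrected for GC content and length, HMMR (limma adjusted p = 0.00369), UBE2C (0.0139), HJURP (0.0147) and TPX2 (0.0329) passed. KIF20A, PTTG1 and AURKA did not. The values below are without that correction. HMMR, a spindle-associated hyaluronan receptor, stood at 46.9 and 48.5 FPKM against 41.5 and 43.9 at 6 h, at 49.3 and 49.99 against 41.9 and 41.7 at 12 h, and at 43.8 and 44.9 against 35.2 and 30.9 at 24 h. The doses did not overlap at any time (1.21% of all genes in this direction), and the 2 libraries of the higher dose differed most from each other at 24 h. The difference of HMMR was -0.27 (SE 0.045, adjusted p = 0.0956). KIF20A, a kinesin of the cleavage furrow, had -0.23 (adjusted p = 0.115), and UBE2C, the ubiquitin-conjugating enzyme of the anaphase-promoting complex, had -0.21 (adjusted p = 0.132). UBE2C fell without replicate 1 of 12.5 µg/ml at 6 h (-0.17, adjusted p = 0.0413), a library in which it stood at 141 FPKM against 114 to 121 in the other 5 of that dose. PTTG1, the securin that restrains separase, had -0.20 (adjusted p = 0.226), and AURKA, the spindle-pole kinase, had -0.15 (adjusted p = 0.256). TPX2, which activates AURKA on microtubules, had -0.12 (adjusted p = 0.132), and HJURP, the chaperone that loads CENPA, had -0.11 (adjusted p = 0.114). For TPX2 and HJURP all 6 libraries of the higher dose lay below all 6 of the lower, as for 0.133% of all genes.

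Lists for other phases of the cell cycle gave no call over all times in the additive model of the 12 libraries as deposited. The 24 DNA replication genes had a median of -0.02 with 15 below 0, and MCM5, a subunit of the replicative helicase, had -0.07 (adjusted p = 0.453). The 10 regulators around FOXM1 and MYBL2 had a median of -0.0042, with 6 below 0. RBL2, the pocket protein of the DREAM complex, stood higher by 0.12 (adjusted p = 0.453). CDKN1B, the inhibitor p27, ran from 23.3 to 25.2 FPKM at the lower dose and from 21.7 to 23.1 at the higher. The doses did not overlap (0.133% of all genes in this direction), and the difference was -0.13 (SE 0.024, limma adjusted p = 0.114). CDKN1B passed in 2 of 32 alternative fits. These were the correction for GC content and length (limma adjusted p = 0.0420) and the fit of all 17 libraries (0.0484).

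The promoters of the mitotic genes held the CHR element far more often than those of genes at large. Searched as TTTGAA on both strands, it was in 33 of 50 mitotic promoters (66%), against 9.59% of the promoters of all genes tested and 15.4% of 27305 RefSeq promoters. CCAAT was in 37 of 50 (74%), against 37.6% of all genes tested. An E2F site, searched as TTTGGCGC on both strands, was in 1 of 50. In 14 of the 50 the CHR letters lay within the last 60 bases before the start, a count not made for all genes. The mitotic promoters without these letters included those of KIF20A, PTTG1 and CCNB1. The lists were written from known roles in mitosis, and a match is a description of the letters and not evidence that the site was used here. Of the called genes, PLK1, CDC20 and CENPA are shown, with HMMR and CCNB2 for comparison, all on the plus strand, with TTTGAA or its reverse TTCAAA in capitals. Their stretches lie at chr16:23678845-23678880, chr1:43358788-43358936, chr2:26786023-26786055, chr5:163460589-163460630 and chr15:59105102-59105137.
PLK1: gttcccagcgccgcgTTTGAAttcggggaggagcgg
CDC20: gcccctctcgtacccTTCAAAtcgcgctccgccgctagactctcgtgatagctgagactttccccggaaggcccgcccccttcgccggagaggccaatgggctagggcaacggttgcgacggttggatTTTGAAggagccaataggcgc
CENPA: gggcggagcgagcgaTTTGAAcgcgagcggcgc
HMMR: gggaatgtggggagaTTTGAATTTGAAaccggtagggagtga
CCNB2: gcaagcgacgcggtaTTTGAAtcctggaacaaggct
PLK1, CENPA and CCNB2 have a single copy with its first base 29, 18 and 29 bases before the start. HMMR has 2 copies end to end, and CDC20 has 1 copy on each strand. CCNB2, a mitotic cyclin, was chosen after its values were seen, and its difference was -0.22 (adjusted p = 0.251).

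SF3B3 stood at 46.4 and 48.3 FPKM against 43.0 in both libraries at 6 h, at 49.3 and 50.5 against 44.0 and 44.4 at 12 h, and at 48.7 and 47.0 against 40.7 and 40.5 at 24 h. All 6 libraries of the higher dose lay below all 6 of the lower (0.133% of all genes), and untreated cells stood at 58.8 to 62.2, above both. SF3B3 fell by 0.18 (SE 0.024, adjusted p = 0.0392). The other 9 SF3A and SF3B subunits tested had differences from -0.05 to 0.02, and none passed. No test of the difference between SF3B3 and the other subunits was made.

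**Figure D2:**
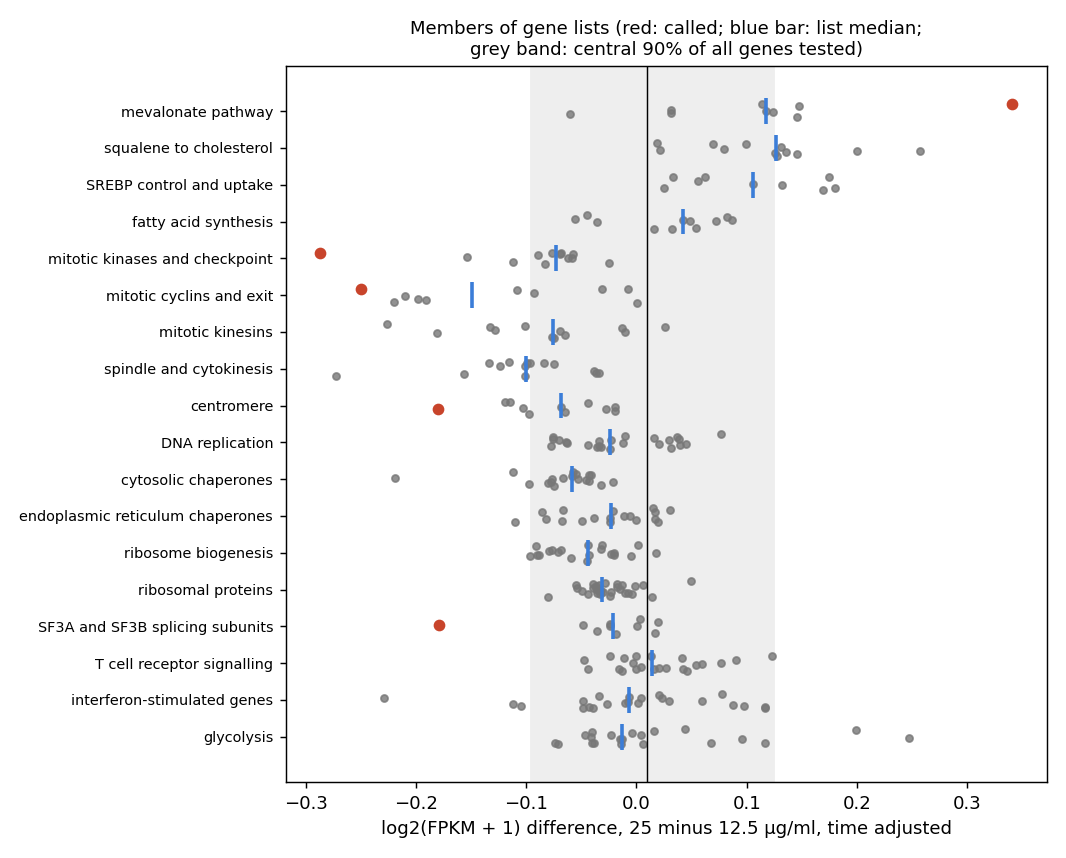
Log2(FPKM + 1) difference between 25 and 12.5 µg/ml with time adjusted (horizontal axis) for the tested members of 18 gene lists (rows). Each point is a gene, red if called, blue bars are list medians, the black line is the median of all 12017 genes and the grey band holds the central 90% of them. The 3 sterol lists have medians of 0.12, 0.13 and 0.11, and the 5 mitotic lists have medians from -0.15 to -0.07.

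Among genes outside the sterol and mitotic lists, 3 were among those with the smallest p in the higher direction after HMGCS1. C4orf34, which encodes a small membrane protein, ran from 4.10 to 6.14 FPKM at the lower dose and from 5.32 to 7.57 at the higher, a difference of 0.24 (SE 0.039, adjusted p = 0.0846). SLC9B2, a sodium-proton exchanger, ran from 6.01 to 6.57 and from 6.90 to 7.43 without overlap (0.25% of all genes in this direction). Its difference was 0.17 (adjusted p = 0.102). CNNM4, a magnesium transporter, differed by 0.21 (adjusted p = 0.114). In the lower direction HNRNPH3, a splicing regulator, followed the 5 called genes, with -0.18 (SE 0.028, adjusted p = 0.0846). None of these passed with replicate 1 of 12.5 µg/ml at 6 h left out (adjusted p from 0.0641 to 0.101). After correction for GC content and length HNRNPH3 (limma adjusted p = 0.0139) and SLC9B2 (0.0329) passed. With all 17 libraries in a fit with 1 mean per dose and time, HNRNPH3 (limma adjusted p = 0.0187) and CNNM4 (0.0490) passed. C4orf34 passed in none of the 32 alternative fits.

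CHORDC1, a co-chaperone of HSP90, had the most negative difference of the 18 cytosolic chaperone genes tested. It stood at 50.8 and 55.7 FPKM against 48.0 and 49.7 at 6 h, at 64.5 and 63.6 against 56.6 and 56.1 at 12 h, and at 51.5 and 53.9 against 42.6 and 39.5 at 24 h. The doses were apart at each time (1.21% of all genes in this direction), and both followed the same course with a peak at 12 h. The difference of CHORDC1 was -0.22 (SE 0.042, adjusted p = 0.123), and it fell without replicate 1 of 12.5 µg/ml at 6 h (-0.25, adjusted p = 0.0413). It also fell once libraries were corrected for GC content and length (-0.25, limma adjusted p = 2.47e-04). All 18 cytosolic chaperone genes had a difference below 0, with a median of -0.06, but none passed with all 12 libraries and no such correction. TRMU, the mitochondrial enzyme that thiolates transfer RNA, stood higher by 0.16 (adjusted p = 0.453) and rose without replicate 1 of 12.5 µg/ml at 6 h (0.21, adjusted p = 0.0408), where it stood at 27.7 FPKM against 22.6 to 24.0 in the other 5 of that dose.

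The other lists gave no call over all times. Ribosomal proteins had 27 of 30 members below 0 (median -0.03) and oxidative phosphorylation 20 of 22 (median -0.04), but without replicate 1 of 12.5 µg/ml at 6 h the medians were 0.02 and 0.00, with 25 of 30 and 12 of 22 members above 0 (57.6% of all genes). In that fit 1 oxidative phosphorylation gene fell, NDUFS1 of complex I (-0.13, adjusted p = 0.0408). Ribosome biogenesis genes had 18 of 20 below 0 with a median of -0.04 (17 of 20 without that library, against 42.3% of all genes). The 5 tested replication-dependent histone genes, which poly(A) selection captures poorly, had a median of -0.15.

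Genes of T cell identity and signalling gave no call. The 22 T cell receptor signalling genes had a median of 0.01. CD28, the costimulatory receptor, ran from 26.5 to 30.7 FPKM at the lower dose and from 29.6 to 34.6 at the higher. Its difference was 0.12 (SE 0.028, limma adjusted p = 0.237). The doses of CD28 were apart at all 3 times, as for 1.65% of all genes in this direction. CD3E, a chain of the receptor complex, differed by -0.02 (adjusted p = 0.862, 95% interval -0.11 to 0.06), MYC by -0.03 (adjusted p = 0.721), and CD6 and its ligand ALCAM by -0.01 each (adjusted p = 0.951 and 0.9751). PTCRA, the pre-T cell receptor alpha chain, stood at 9.27 and 7.38 FPKM against 5.11 and 5.59 at 6 h, at 6.94 and 6.22 against 5.39 and 6.15 at 12 h, and at 8.92 and 9.21 against 8.95 and 10.5 at 24 h. Its 2 doses were apart at 6 and 12 h, with the higher dose lower, and overlapped at 24 h. The share of all genes apart at 2 times was not counted. Over all times the difference of PTCRA was -0.21 (SE 0.099, limma adjusted p = 0.590). RPS6KB1, the S6 kinase, stood higher by 0.10 (limma adjusted p = 0.472) and DGKA, a diacylglycerol kinase, by 0.09 (adjusted p = 0.334). PRMT10, of the arginine methyltransferase list, stood higher by 0.15 (SE 0.028, limma adjusted p = 0.114). For PRMT10 all 6 libraries of the higher dose (13.3 to 14.6 FPKM) lay above all 6 of the lower (11.8 to 13.0), with 9.25 to 9.90 in untreated cells. Such a gap with the higher dose above held for 0.25% of all genes. PRMT10 passed in 2 of 32 alternative fits, among them that with GC and length correction (limma adjusted p = 0.0319). GPR17, an orphan receptor of low level, ran from 1.24 to 2.30 FPKM at the lower dose and from 0.608 to 1.66 at the higher (-0.39, SE 0.073, limma adjusted p = 0.123). GPR17 passed in 1 of 31 alternative fits, that with all 17 libraries (limma adjusted p = 0.0298).

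Each time was also examined alone. A call at 1 time and not at another is no test of a difference between times. In a fit with 1 mean for each dose and time, 2 genes passed at 6 h (0.0166%), 2 at 12 h (0.0166%) and 5 at 24 h (0.0416%). HMGCS1 was 1 of the 2 at 12 h and 1 of the 5 at 24 h. C6orf223, an uncharacterised gene chosen after its values were seen, rose at 24 h (0.63, adjusted p = 0.0356), and without replicate 2 of 25 µg/ml at 24 h it had 0.57 (adjusted p = 0.190). The other calls were small nuclear and nucleolar or ribosomal RNA genes listed at 0 in several libraries: SCARNA23 and SNORA16B at 6 h, SNORD9 at 12 h, and SNORA14A, SCARNA23 and RN5S3 at 24 h. RN5S3 was picked after its values were seen. No fold is given for them, since poly(A) libraries measure such RNAs poorly and a listed 0 can be a failed estimate.

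The medians of both gene groups lay further from 0 at the later times, though that of the centromere list, 1 of the 5 mitotic lists, did not (-0.10, -0.08 and -0.08). Sterol genes had medians of 0.01 at 6 h, 0.09 at 12 h and 0.23 at 24 h, with 16, 28 and 27 of 30 above 0 (46.4%, 53.9% and 57.4% of all genes), against medians of -0.01, 0.01 and 0.02 for all genes. Mitotic genes had medians of -0.06, -0.08 and -0.15, with 40, 56 and 51 of 59 below 0 (53.6%, 45.9% and 42.4% of all genes). Without replicate 1 of 12.5 µg/ml at 6 h, the 6 h medians of the 3 sterol lists were 0.05, 0.01 and 0.00, and those of the 5 mitotic lists ran from -0.06 to -0.01. Without replicate 2 of 25 µg/ml at 24 h, the 24 h medians were 0.20 for sterol and -0.13 for mitotic genes. MVD, the mevalonate decarboxylase, chosen after its values were seen, had -0.19 at 6 h, 0.06 at 12 h and 0.51 at 24 h. Its 24 h libraries stood at 29.5 and 28.6 FPKM against 40.5 and 43.0. The test of the change from 6 to 24 h called no gene of either group. The 3 genes it called of 12017 (0.025%) were small RNAs listed at 0 in several libraries, 2120 genes had an unadjusted p under 0.05, and MVD had an adjusted p of 0.0808.

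**Figure D3:**
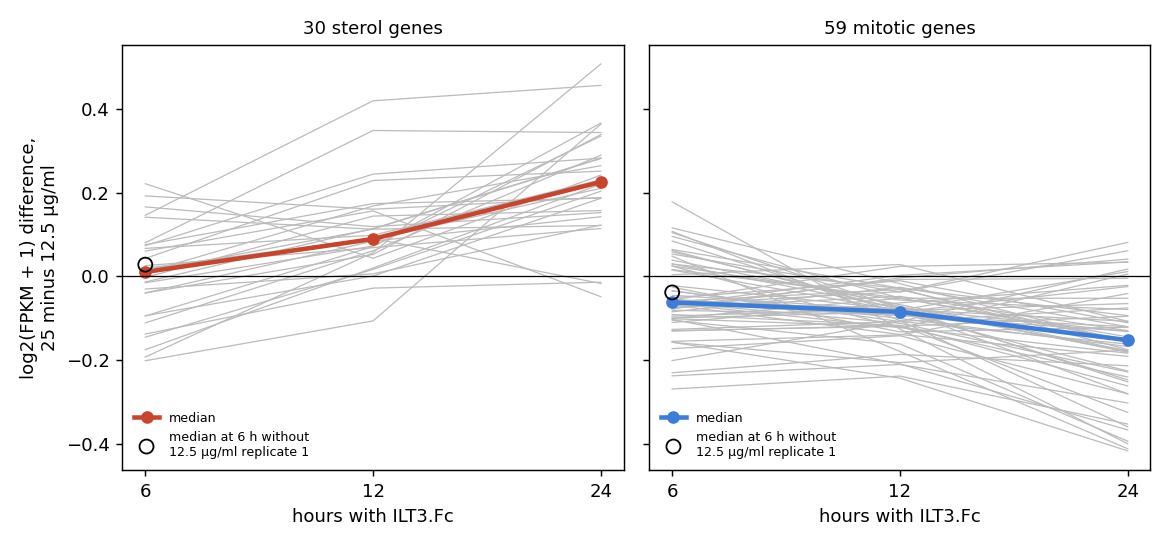
Log2(FPKM + 1) difference between 25 and 12.5 µg/ml (vertical axis) by hours with ILT3.Fc (horizontal axis) for 30 sterol genes and 59 mitotic genes. Grey lines are single genes, coloured lines are medians, and open circles are the 6 h medians without replicate 1 of 12.5 µg/ml. Sterol medians go from 0.01 to 0.23 and mitotic medians from -0.06 to -0.15.

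At 24 h the number of calls turned on a library of another time. Leaving out replicate 1 of 12.5 µg/ml at 6 h changes no value at 24 h but lowers the spread shared by all groups, and 72 genes then passed at 24 h (0.599%), 34 higher (0.283%) and 38 lower (0.316%). In that fit 9 of 30 sterol genes rose and none fell, and 15 of 59 mitotic genes fell and none rose. The sterol genes were HMGCS1 (0.46, adjusted p = 0.0046), MVD (0.51), INSIG1 (0.25), DHCR7 (0.28), FDFT1 (0.28), NSDHL (0.29), MSMO1 (0.34), ACAT2 (0.34) and EBP (0.22). The mitotic genes included CENPE (-0.41), HMMR (-0.42), CCNB2 (-0.39), KIF20A (-0.37), CENPF (-0.36), PLK1 (-0.35), CCNB1 (-0.33) and CDC20 (-0.30). FDFT1, NSDHL, ACAT2, EBP, CENPE, CENPF and CCNB1 were chosen after their values were seen. JUN, the early-response transcription factor, rose as well (0.52, adjusted p = 0.0448), from 5.09 and 5.70 FPKM at the lower dose to 8.02 and 8.32, but did not pass without replicate 2 of 25 µg/ml at 24 h with replicate 1 of 12.5 µg/ml at 6 h kept (0.50, adjusted p = 0.442). Without replicate 2 of 12.5 µg/ml at 6 h instead, 73 genes passed (0.607%), 72 of them the same. Either omission leaves 1 library in that group, so the difference between its 2 libraries no longer enters the spread. Both counts therefore rest on the same 24 h values and the same spread, and are not separate checks. These counts did not hold without replicate 2 of 25 µg/ml at 24 h, the library whose deviations rose with GC content: 6 genes passed at 24 h without it, and 8 without it and replicate 1 of 12.5 µg/ml at 6 h, an omission chosen after seeing the data. Without that 24 h library alone HMGCS1 rose by 0.49 (adjusted p = 0.0280) and PLK1 fell by 0.43 (adjusted p = 0.0254), while MVD stood higher by 0.46 (adjusted p = 0.315) and HMMR had -0.33 (adjusted p = 0.180).

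Base composition moved with these 24 h calls. The 34 higher genes had a median GC content of 57.9% and the 38 lower genes of 45.2% (37 with a value), against 48.1% for all genes. Sterol genes had a median of 50.2% and mitotic genes of 43.2%. After each library was corrected for GC content and gene length, 62 of 11129 genes passed at 24 h (0.557%), 19 higher (0.171%) and 43 lower (0.386%). Among them 8 of 30 sterol genes rose and 14 of 59 mitotic genes fell, with all 12 libraries in the fit. HMGCS1 then rose by 0.48 (adjusted p = 0.00243), MSMO1 by 0.39 (adjusted p = 0.00209), and MVD by 0.38 (adjusted p = 0.0107). PLK1 fell by 0.45 (adjusted p = 0.00157), CDC20 by 0.38 (adjusted p = 0.00157) and KIF20A by 0.40 (adjusted p = 0.00454). JUN did not pass after this correction (0.43, adjusted p = 0.0632).

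**Figure D4:**
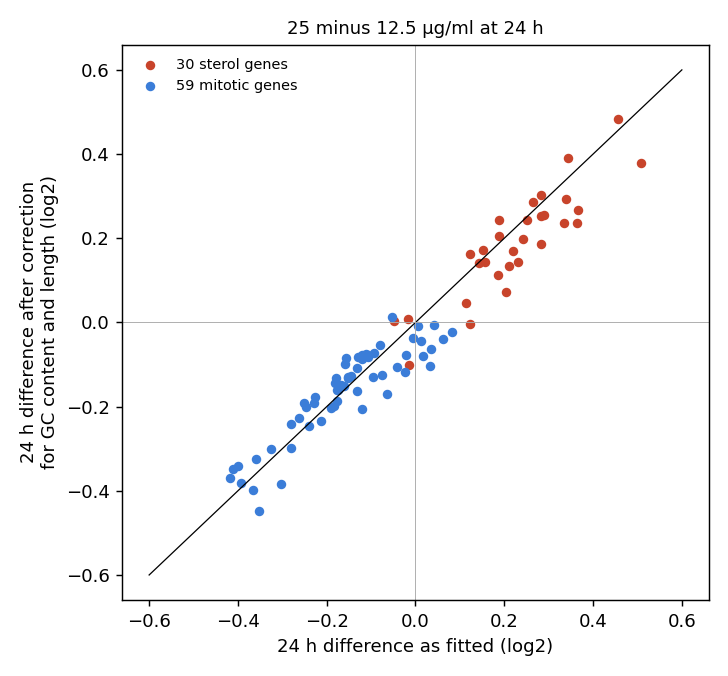
Difference between 25 and 12.5 µg/ml at 24 h as fitted (horizontal axis, log2) and after correction of each library for GC content and length (vertical axis, log2). Each point is 1 of 30 sterol genes (red) or 59 mitotic genes (blue), and the diagonal marks equal values. HMGCS1 moves from 0.46 to 0.48 and PLK1 from -0.35 to -0.45.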

How the data were processed

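RNA was measured by poly(A) RNA-seq. The authors deposited 1 table of FPKM values with a column per library. TopHat2 2.1.0 is named in the submitters' processing notes. The quantifier, build and gene models were not given in the sources used here. Where a symbol was repeated (45 extra lines), only the line of highest mean was used, leaving 25548. Those whose FPKM averaged 1 or more over the 12 libraries, 12017 in all, were tested on log2(FPKM + 1), which understates changes at low levels. Dose and time were fitted with limma 3.58.1 under R 4.3.3 (8 residual degrees of freedom) with a variance trend and empirical Bayes moderation. Single times and their change came from 1 mean per dose and time. Tests were two-sided with Benjamini-Hochberg adjustment, with 0.05 as the limit for a call. The steps were tested on simulated data. FPKM keeps no read counts, so no count test was run, and relative depth was read from the smallest values of 6620 low genes.

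The members and the 42 gene lists were chosen with earlier results of these data known. Named genes are up to 12 called genes per direction by size (filled to 6 by p), up to 3 members of each list by p, the 3 genes of smallest p at each time and for the change, and fixed candidates. Genes outside this rule are marked as chosen later, and some genes the rule names are not reported here. Sequencing lanes were the same for both doses: lane 4 for 24 h and replicate 1 of 6 h, lane 5 for 12 h and replicate 2 of 6 h. GENCODE v29 gave GC content and length, matched for 11129 genes (92.6%), and a loess curve (span 0.3) on each was subtracted per library. Alternatives changed the libraries, pseudocount, filter, scaling, variance trend, lane, block and GC correction.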

Additional observations from a re-analysis of the deposited data

Results flagged for a closer look

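The test of the dose difference at 24 h against that at 6 h called 3 small RNA genes. The fitted values of the 24 h difference minus the 6 h difference were -3.92 for SNORA14A, -9.92 for SCARNA23 and 4.70 for SNORA16B on the log2 scale. These are not folds, since each gene was listed at 0 in some of the groups compared. A group with both libraries at 0 has no spread, and such groups lower the residual spread behind these p-values (10, 4 and 10 of the 12 libraries were at 0), so these p-values are not read as a change with time. SNORA14A stood at 13.1 and 15.2 FPKM at 12.5 µg/ml at 24 h and at 0 in the other 10 dosed libraries, and at 24.1 in 1 untreated library. SCARNA23 stood at 41.9 and 33.9 FPKM at 25 µg/ml at 6 h, where both libraries of the lower dose were at 0, and at 15.7 and 36.4 at 12.5 µg/ml at 24 h, where both of the higher dose were at 0. SNORA16B stood at 41.5 and 14.9 FPKM at 12.5 µg/ml at 6 h and at 0 in the other 10. Among genes above 0 in all 12 libraries, a restriction chosen after seeing the data, no gene passed this limma test, and 2157 had an unadjusted p under 0.05.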

How the results depend on the processing

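The 6 called genes kept their sign under all 32 alternatives, and PLK1 passed in 17, CDC20 and SF3B3 in 12 each, HMGCS1 and CENPA in 11 each and FAM83D in 10. The number of calls moved. Over all times 11 genes passed with 1 mean per dose and time, and 34 with such means and all 17 libraries. The count was 1 without the variance trend, 2 with lane as a covariate, 0 in lane 4 alone and 0 in lane 5 alone. It was 3 without the 6 h libraries, 0 without the 12 h and 0 without the 24 h libraries. With the replicate block 0 passed, with the block within each time 0, with GC and length correction 46 and with that correction and the replicate block 17. Deviations of same-numbered libraries correlated at -0.05, 0.03 and 0.03 at 6, 12 and 24 h. No shared deviation was thus seen at 12 and 24 h. At 6 h the replicate numbers follow the lane at both doses, and 1 of these libraries carries the length bias. The 6 h value therefore cannot show whether the numbers pair the samples. Where none passed, 588 to 1070 genes had an unadjusted p under 0.05. With all 17 libraries 1, 1, 43 and 5 genes passed at 6, 12 and 24 h and for the change from 6 to 24 h. Pseudocount 0.1 gave 5 for that change. Without a filter 4, 5 and 5 passed at 6 h, at 12 h and for the change. A mean FPKM of at least 5 gave 1, 15 and 1 at 6 h, at 24 h and for the change. Median centring gave 1 at 12 h, no variance trend 1 at 12 h, quantile normalization 22 at 24 h and the replicate block 1 at 12 h. At 24 h the GC and length correction gave 62, and 51 with the replicate block. Chosen after seeing the data, genes above 0 in all 12 libraries gave 0, 1 and 0 at 6 h, at 12 h and for the change, and omitting both libraries with a length or GC bias gave 5, 8 and 9 at 6 h, at 24 h and for the change. Leaving out 1 library gave 0 to 15 calls over all times, 2 to 2949 at 6 h, 1 to 6 at 12 h, 3 to 73 at 24 h and 2 to 2642 for the change. The highest values at 6 h and for the change came without replicate 2 of 12.5 µg/ml at 6 h, which leaves the library with the length bias alone in its group. Without replicate 1 of 25 µg/ml at 24 h, 47 genes passed at 24 h and 69 for the change. Of the values for single genes and lists, 4816 counted as the same and 397 as moved. A gene counted as the same if it kept its sign and side of the threshold. A list median, which has no threshold, counted as the same if it kept its sign and a similar size. Those that moved were genes that changed sign and list medians that changed sign or size. Gene values that came to pass numbered 52, and 119 no longer passed.

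With 2 libraries per group, FPKM without counts and 1 cell line, small differences at a single time were often not detectable. The cause of these movements was not tested.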

Other observations

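Genes of stress and early response gave no call over all times. Of the 15 early-response genes tested, 12 stood lower at the higher dose at 6 h (median -0.11, with 53.6% of all genes lower) and 10 stood higher at 24 h (median 0.05, with 57.4% of all genes higher). Without replicate 2 of 25 µg/ml at 24 h, 7 stood higher at 24 h (median -0.02). IER3, an early-response gene that NF-kB induces, stood at 3.60 and 3.36 FPKM with 12.5 µg/ml and at 2.17 and 2.02 with 25 µg/ml at 6 h, and its difference over all times was -0.27 (SE 0.083, adjusted p = 0.426). JUND, an AP-1 partner of JUN chosen after its values were seen, had -0.28 at 6 h and 0.57 at 24 h, and the test of that change gave an adjusted p of 0.0566. Of the 18 endoplasmic reticulum chaperones, 15 stood lower at 6 h (median -0.12) and 7 did at 24 h (median 0.02). Without replicate 1 of 12.5 µg/ml at 6 h, the library whose deviations followed gene length, the 6 h medians were -0.05 and -0.06.

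Of the glycolysis genes, PFKFB4, which sets the level of fructose 2,6-bisphosphate, stood higher by 0.25 (SE 0.064, adjusted p = 0.308), while LDHA, the lactate dehydrogenase, had -0.07 (adjusted p = 0.568). The list of 21 had a median of -0.01 and no call. Among interferon-stimulated genes XAF1 (0.09, adjusted p = 0.464) and ISG20 (-0.23, adjusted p = 0.553) had opposite signs, IFI44 stood higher by 0.12 (adjusted p = 0.628), and the 23 tested had a median of -0.01. TNFRSF10B, the death receptor gene among p53 targets, stood higher by 0.13 (SE 0.036, limma adjusted p = 0.341). Its doses were apart at all 3 times, as for 1.65% of all genes in this direction.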
